A study of Mus musculus with 10 samples.

Results

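Odorant receptors of class I, the fish-like class, were examined as a set of 115 genes among the 24421 genes of the table. They were all rows with names from Olfr543 to Olfr692 and no pseudogene suffix. The rule used names only, and no measured value. All 115 lay on mouse chromosome 7 between 102476773 and 105369317 (GRCm38), a span of 2.89 Mb. In the annotation, 61 genes lay on the plus strand and 54 on the minus strand. It called 114 of them protein coding and 1, Olfr663, a polymorphic pseudogene.

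Bulk poly(A) RNA-seq was made from olfactory epithelium, the odour-sensing lining of the nose, of untreated C57BL/6 mice aged 6 months. Mice labelled Apoe4 gave 6 libraries and mice labelled Apoe3 gave 4, and the series speaks of the human alleles of this lipid carrier. The labels do not say how the alleles were introduced, which sex or litters were used, or whether each library came from a separate animal. The p-values therefore measure the spread between these libraries only, which may in part be technical.

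Each mature olfactory sensory neuron expresses a single odorant receptor gene from a single allele, chosen from a very large family. The receptor is a membrane protein that couples to the olfactory G protein in the cilia and also guides the axon to its glomerulus in the olfactory bulb. Class I receptors form a single large cluster in the mouse, are used mostly in the dorsal epithelium, and are known for responses to water-soluble odorants such as carboxylic acids. In bulk tissue, fewer neurons that chose a receptor and less of its RNA per neuron cannot be told apart.

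The table held 1 mean normalized count per gene over all 10 libraries, and a log2 fold change of Apoe4 over Apoe3 with its standard error (SE) and p-values. It held no values by library, so levels of the tested receptors are given as that authors' mean, with no error. Summed means and size factors placed the libraries at about 14900000 to 20100000 assigned reads each. Apoe itself, at 19696244 to 19701310 on the same chromosome and 82.8 Mb away from the cluster, had a mean of 249 and a log2 fold change of -0.16 (SE 0.10, DESeq2 adjusted p 0.579) in the authors' deposited table. Its values do not check the genotype labels, since both groups carry an Apoe allele and the table does not separate human from mouse reads. Sex-linked transcripts differed strongly in the authors' deposited table, with log2 fold changes of 6.41 for Xist and -3.72 for Eif2s3y. Xist was not marked low but carries no p-value there, for a reason not given. The sex-linked difference and the genotype cannot be told apart in these data.

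Many class I genes are close copies of each other, and this limits what short reads can tell. The identity of coding sequences was computed over 114 members, leaving out Olfr643 with a truncated coding model. The identity of a member to its nearest odorant receptor had a median of 77.3% and ranged between 58.9% and 99.5%. That nearest receptor was itself a member for 108 of the 114. At least 95% identity was reached by 21 members. Here 3 pairs are shown, in 90 coding bases each, because they mark the closest pair, a pair that involves a receptor with a small p-value, and the only receptor that changed beside its nearest relative. Capitals mark the bases that differ within a pair. The sequences are from GENCODE transcripts of GRCm38, coding strand, and the positions count from the first coding base.
Olfr596, bases 391 to 480: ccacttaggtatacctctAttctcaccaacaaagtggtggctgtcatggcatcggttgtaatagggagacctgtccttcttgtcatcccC
Olfr603, bases 391 to 480: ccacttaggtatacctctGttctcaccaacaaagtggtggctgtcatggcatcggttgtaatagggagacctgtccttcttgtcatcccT
Olfr679, bases 557 to 646: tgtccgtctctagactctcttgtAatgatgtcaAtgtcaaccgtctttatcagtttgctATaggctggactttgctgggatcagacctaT
Olfr681, bases 557 to 646: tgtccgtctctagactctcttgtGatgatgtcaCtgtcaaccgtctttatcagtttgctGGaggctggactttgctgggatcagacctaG
Olfr570, bases 526 to 615: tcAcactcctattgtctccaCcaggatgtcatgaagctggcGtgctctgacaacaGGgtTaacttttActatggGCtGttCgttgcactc
Olfr575, bases 550 to 639: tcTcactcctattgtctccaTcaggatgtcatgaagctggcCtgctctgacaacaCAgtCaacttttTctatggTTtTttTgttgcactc

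Olfr596 and Olfr603 differed at 5 of 936 coding bases, an identity of 99.5%. With the Olfr596 base first and positions from its first coding base, the differences were T113C, A409G, C480T, C649T and T682C. The longest run that both genes shared was 295 bases. Olfr596 had a mean of 47.1, or 13.9 per 1000 bases of its longest annotated transcript, and Olfr603 had 0.190, or 0.186 per 1000 bases. Olfr679 and Olfr681 differed at 14 of 945 bases (98.5%), and their means were 7.57 and 35.3, or 1.46 and 7.46 per 1000 bases. Olfr570 stood farther from its kin, with 76.4% identity to Olfr575, and the stretch shown, the gapless 90 bases with fewest differences, still held 11.

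Other close pairs had levels that ranged from near equal to far apart. Olfr671 and Olfr675 (96.6%) had means of 37.0 and 40.6, and Olfr666 and Olfr668 (96.9%) had 57.2 and 43.4. Olfr597 and Olfr598 (96.9%) had 29.6 and 120, or 10.9 and 59.3 per 1000 bases. Olfr658 was 97.1% identical to Olfr503, a receptor outside the set that was listed at 0, and had a mean of 55.8 itself. Olfr657, at 7.11 per 1000 bases, likewise had a copy outside the set, Olfr504, that was listed at 0. Olfr583 and Olfr585 (96.1%) were both marked low, at 0.0992 and 1.16 per 1000 bases. Among the 21 members with such a copy, 5 were marked low, against 15 of the other 93. How the authors' counting treated reads that matched both copies is not given in the sources used here, so the level of each member of a close pair is uncertain.

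**Figure D1:**
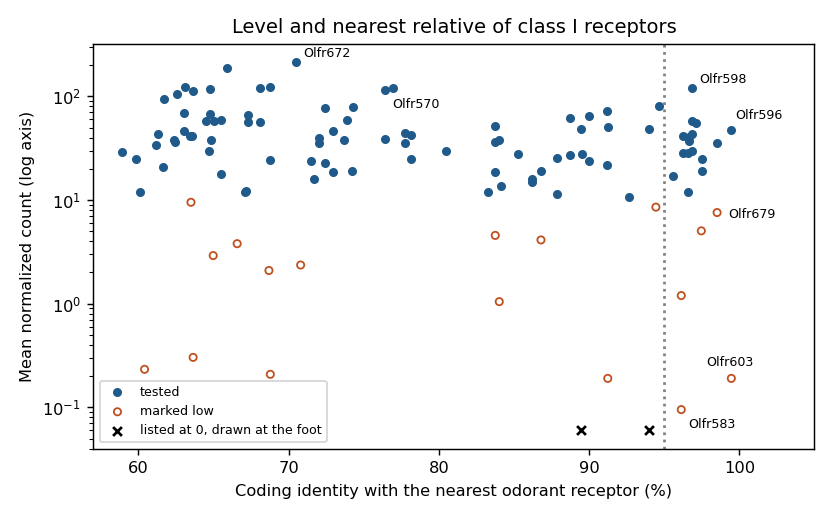
Each of 114 members is placed by the coding identity with its nearest odorant receptor (x axis, percent) and by its mean normalized count over 10 libraries (y axis, log scale). Filled points are tested members, open points those marked low, crosses those listed at 0, and the dotted line marks 95%. Olfr596 and Olfr603 share 99.5% of their bases and sit at 47.1 and 0.190.

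Most class I receptors had low levels, close to those of the other odorant receptors. The 95 members that passed the authors' filter on low means had a median mean normalized count of 38.3 (quartiles 24.7 and 58.4, range 10.6 to 212). The other 717 odorant receptors that passed had a median of 37.6 (quartiles 21.5 and 71.7), and their highest reached 2317. These others are all receptors outside the number range and include 8 tested class I genes of the same span. Divided by transcript length, the medians were 11.7 per 1000 bases for the class I members and 12.8 for the other receptors, against 126 for all genes. The filter marked 20 of the 115 members low (17.4%), against 27.6% of the 992 other odorant receptors and 34.0% of all genes. The class I members made up 10.4% of odorant receptor rows and 9.15% of the receptors' summed means. None of these differences between sets was tested.

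A few members stood above the rest, and the 8 with the highest means held 23.9% of the summed means of the set. Olfr672 had a mean of 212, which was 5.55 times the median tested member, and it also led per length, with 143 per 1000 bases. Olfr640 came next by mean with 187, but its transcript is long, and it had 46.7 per 1000 bases. Olfr615 with 124, Olfr549 with 123, Olfr690 with 122, Olfr665 with 120, Olfr598 with 120 and Olfr578 with 119 followed within a narrow band. Per 1000 bases the order behind Olfr672 was Olfr570 with 80.3, Olfr643 with 79.4, Olfr610 with 68.1 and Olfr549 with 65.1. In all, 11 members had a mean over 100 and 84 had one between 10 and 100. With no spread over libraries in the table, neighbours in this order could not be tested against each other.

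Receptors with known ligands lay in the body of the distribution. Olfr544, a receptor for the dicarboxylic acid azelaic acid, had a mean of 72.4, or 22.1 per 1000 bases, and lies at 102484114 to 102488307. Olfr558, which responds to short branched fatty acids and is also expressed outside the nose, had 57.5, or 18.9 per 1000 bases, and lies at 102702323 to 102712054. The first member, Olfr543, had 3.79 and was marked low, and the last, Olfr692, had 20.7. The lowest members that were tested were Olfr623 with 10.6, Olfr593 with 11.4 and Olfr556 with 11.8. Just under the filter stood Olfr551 with 9.51 and Olfr559 with 8.54.

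**Figure D2:**
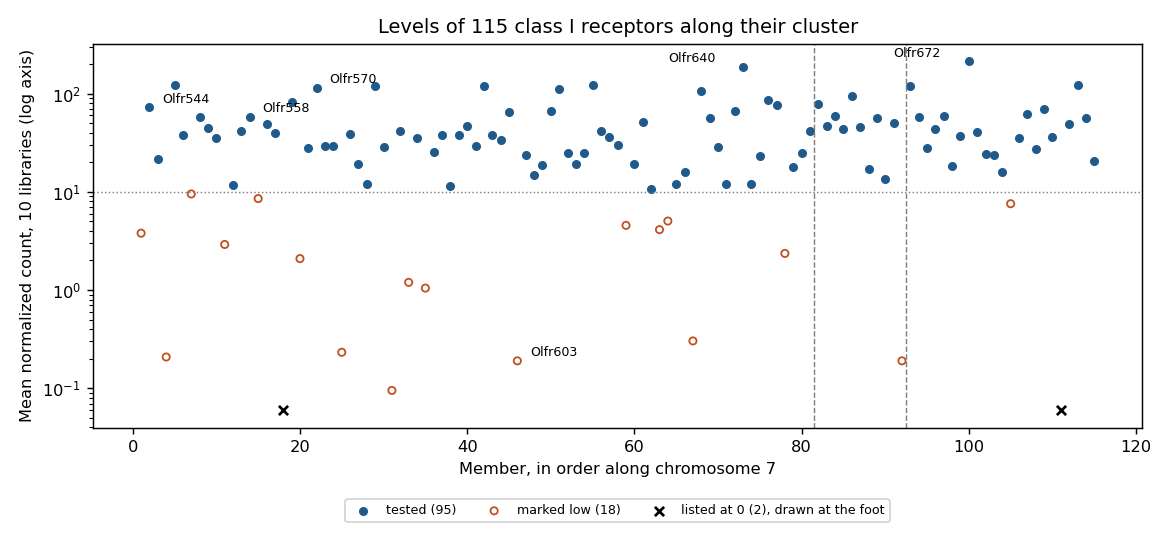
The mean normalized count over 10 libraries (y axis, log scale, not divided by transcript length) of all 115 members in their order along chromosome 7 (x axis). Filled points are the 95 tested members, open points the 18 marked low, crosses the 2 listed at 0, the dotted line a mean of 10, and the dashed lines the gaps between blocks. High and low members are mixed along the whole cluster.

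High and low members were mixed along the cluster. Gaps of more than 90 kb between receptors, a width chosen after seeing the data, divided the set into 3 blocks. The first, Olfr543 to Olfr649 at 102476773 to 104190205, held 81 members, of which 64 were tested with a median mean of 37.0. The second, Olfr651 to Olfr663, held 11 members, with 10 tested and a median of 48.3, and the third, Olfr665 to Olfr692, held 23, with 21 tested and a median of 40.6. The 48 tested members of the plus strand had a median of 38.0 and the 47 of the minus strand had 41.6. As a description across genes, which share libraries and are not replicates, level and transcript length had a Spearman correlation of -0.08 over the 95 tested members. Low members had shorter annotated transcripts, with a median of 1026 bases against 3132 for tested members.

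For members far below the filter, single reads could be traced. Genes with 1 read in 1 library have means that depend only on that library's size factor, and these took 10 levels, 6 with a positive fold change and 4 with a negative one. This set the direction of the fold changes, since Apoe4 had 6 libraries and Apoe3 had 4. For 15 low members the mean matched exactly 1 combination of whole reads across the 10 libraries. The libraries so traced belong to a group but carry no replicate number, so they are lettered a to f in Apoe4 and a to d in Apoe3.

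Of these 15 members, 9 had at least 10 reads in all, and for them the groups overlapped. Olfr628 had 1, 10, 4, 8, 3 and 6 reads in Apoe4 libraries a to f, against 7, 2, 4 and 5 in Apoe3 libraries a to d. Olfr619 had 1, 12, 1, 9, 7 and 0 in Apoe4, against 6, 2, 7 and 1 in Apoe3. Its reads were thus spread unevenly within both groups. Olfr624 had 5, 6, 4, 3, 6 and 4 in Apoe4, against 7, 3, 1 and 3 in Apoe3, the most even of the members shown. Olfr543 had 3, 2, 2, 2, 6 and 5 in Apoe4, against 0, 4, 1 and 11 in Apoe3. Its highest library belonged to Apoe3. Olfr645 had 4, 8, 2, 3, 0 and 3 in Apoe4, against 0, 2, 0 and 2 in Apoe3. Olfr555 had 1, 8, 5, 5, 0 and 4 in Apoe4, against 0, 2, 4 and 0 in Apoe3. In both genes the highest library was Apoe4 b, and each group held a library with 0 reads.

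Olfr568 had 16 reads over the Apoe4 libraries and 5 over the Apoe3 libraries, Olfr585 had 10 and 2, and Olfr589 had 9 and 2. The other 6 resolved members had under 4 reads each. Olfr631 had 3 reads in Apoe4 libraries and 0 in Apoe3 libraries. Olfr603, Olfr663 and Olfr583 had 2, 2 and 1 reads, each in library Apoe4 b alone. Olfr547 had 2 reads in library Apoe4 e, and Olfr574 had 2 in library Apoe3 d. Olfr564 and Olfr688 were listed at 0.

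Summed over the 15 members, the Apoe4 libraries held 63, 36, 30, 25, 25 and 19 reads, and the Apoe3 libraries held 26, 23, 19 and 17. The sums overlapped, and library Apoe4 b alone stood above the others. It held 60.0 after division by size factor, against 16.4 to 36.5 in the other Apoe4 libraries and 15.7 to 30.3 in Apoe3 libraries. Its part in the folds of the tested members was not tested, because their values by library are not in the table.

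**Figure D3:**
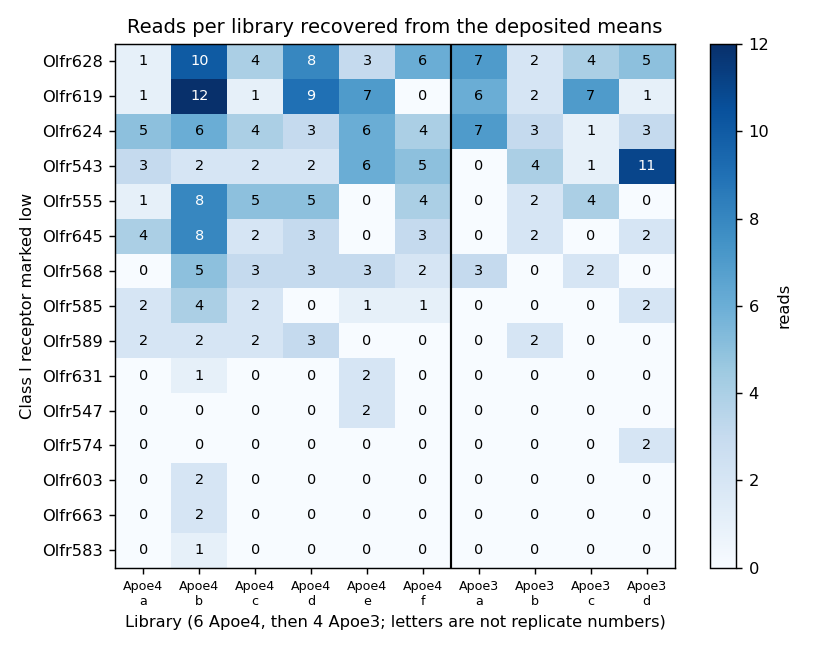
Reads in each of the 10 libraries (columns, 6 Apoe4 libraries left and 4 Apoe3 libraries right) for the 15 low members whose mean resolved into whole reads (rows). Library Apoe4 b holds 63 reads in all, and the groups overlap for every member with at least 10 reads.

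Between Apoe4 and Apoe3 a single class I receptor changed. Olfr570 fell in Apoe4, with a mean of 114, a log2 fold change of -0.42 (SE 0.11), p = 7.33e-05 and a DESeq2 adjusted p of 0.0136 in the authors' deposited table. The other 94 tested members did not pass. This was 1.05% of the 95 members, with 1 lower and 0 higher, against a background of 0.779% for all 16050 genes tested (125 genes). By direction the background was 0.455% lower and 0.324% higher. The members' share is near the background, so the count is not a result about class I receptors as a group. Among the other odorant receptors, 16 of 717 changed, a share of 2.23%, with 11 lower (1.53%) and 5 higher (0.697%).

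Olfr570, also known as MOR8-3, lies at 102900342 to 102901386 on the plus strand, in the first block. The deposited folds are shrunken toward 0, judged from the ceiling on their standard errors, and without that shrinkage by approximation the log2 fold change of Olfr570 came to between -0.87 and -0.80. Its neighbours did not pass the test, and they took both signs in the authors' deposited table, more of them negative. On one side Olfr569 had a log2 fold change of 0.08 and the next tested member, Olfr566, had -0.19 (DESeq2 adjusted p 0.542). On the other side Olfr571 had -0.09 and Olfr572 had -0.15 (DESeq2 adjusted p 0.788 and 0.645), while Olfr575 had 0.03. Past Olfr575, the tested members Olfr576, Olfr577 and Olfr578 had -0.08, -0.08 and -0.19, and Olfr582 had 0.20. Whether these folds are related to that of Olfr570 was not tested. The call was lost when the trend of the test statistic with transcript length was removed (adjusted p 0.130). Over all genes that trend had a Spearman correlation of 0.41 with length, against 0.18 over the 95 members, both as descriptions. The call was also lost against a fold of 1.2 (adjusted p 1.0). That test used the shrunken fold and its SE, so it cannot say whether the unshrunken fold exceeds 1.2.

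Each of the 4 members next in order of p-value had a positive fold, and none passed the adjusted threshold. In the authors' deposited table Olfr611 had a log2 fold change of 0.26 (SE 0.09, p = 0.00403, DESeq2 adjusted p 0.201). Olfr638 had 0.21 (DESeq2 adjusted p 0.335), Olfr681 had 0.22 (0.403) and Olfr582 had 0.20 (0.482) in the authors' deposited table. Each of these 4 has a copy of at least 95% coding identity, as have 16 of the 95 tested members in all. Their copies had deposited folds nearer 0, which picking members by small p-values favours by itself. In the authors' deposited table the log2 fold changes were 0.07 for Olfr612 beside Olfr611, 0.01 for Olfr635 beside Olfr638, 0.02 for Olfr679 beside Olfr681, and 0.04 for Olfr584 beside Olfr582. Reads of such pairs could have been split between them, and that part was not tested.

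The 5 members that followed had negative folds, and the authors' deposited table had Olfr641 at a log2 fold change of -0.16, Olfr642 at -0.17, Olfr666 at -0.20, Olfr578 at -0.19 and Olfr566 at -0.19. Their DESeq2 adjusted p-values in the authors' deposited table ran between 0.487 and 0.542. Unadjusted, 5 of the 95 members had p under 0.05, or 5.26%, with 4 higher (4.21%) and 1 lower (1.05%). The background over all genes was 10.3%, with 4.54% higher and 5.76% lower. The other odorant receptors stood at 13.9%, with 2.93% higher and 11.0% lower. The differences between these shares were not tested.

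**Figure D4:**
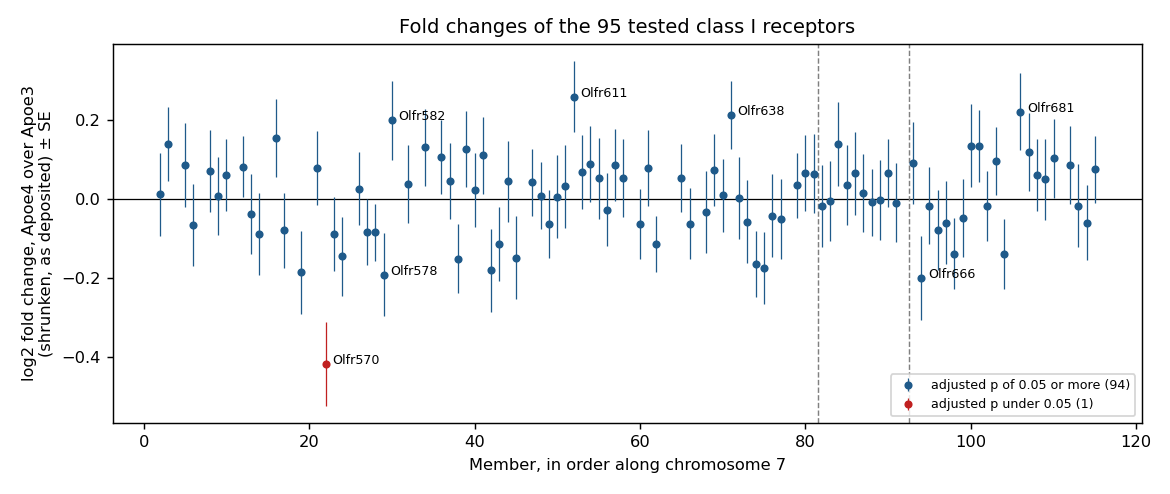
The log2 fold change of Apoe4 over Apoe3 (y axis) in the authors' deposited table for the 95 tested members in order along chromosome 7 (x axis), with bars of 1 standard error either way. Olfr570, at -0.42, is the only member that passed an adjusted p of 0.05.

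The most abundant members had small deposited folds of either sign. In the authors' deposited table the log2 fold change was 0.13 for Olfr672, -0.06 for Olfr640, 0.05 for Olfr615, 0.09 for Olfr549, -0.02 for Olfr690, 0.09 for Olfr665 and -0.18 for Olfr598. Olfr578, the last of the 8 highest, had -0.19. The DESeq2 adjusted p-values of these 8 in the authors' deposited table lay between 0.519 and 0.975. The ligand-defined receptor Olfr544 had 0.01 (SE 0.11, DESeq2 adjusted p 0.983) and Olfr558 had -0.09 (SE 0.10, adjusted p 0.820) in the authors' deposited table. The least abundant tested members, Olfr556, Olfr593 and Olfr623, had 0.08, -0.15 and -0.11, and none passed in the authors' deposited table. At the ends of the cluster, Olfr692 had 0.07 (DESeq2 adjusted p 0.816) and the low gene Olfr543 had -0.02 in the authors' deposited table, which gives the low gene no adjusted p.

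As a set, the folds of class I receptors centred close to 0. The median log2 fold change over the 95 tested members was 0.01 (quartiles -0.06 and 0.08, range -0.42 to 0.26), and 66 had a size under 0.1. Positive folds numbered 54 of 95, or 56.8%, beside a background of 51.1% over all genes. The other odorant receptors had a median of -0.03 and 290 of 717 positive, or 40.4%, and all genes had a median of 0.00. These other receptors include 8 tested class I genes of the same span. The difference between the members and the other receptors was not tested, since genes of the same libraries are not replicates. By block the medians were 0.02, 0.01 and 0.05 in order along the chromosome, and by strand they were 0.03 on the plus strand and 0.01 on the minus strand. Folds of adjacent tested members had a Spearman correlation of 0.04 over 94 pairs, and fold and level one of -0.05, both as descriptions.

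**Figure D5:**
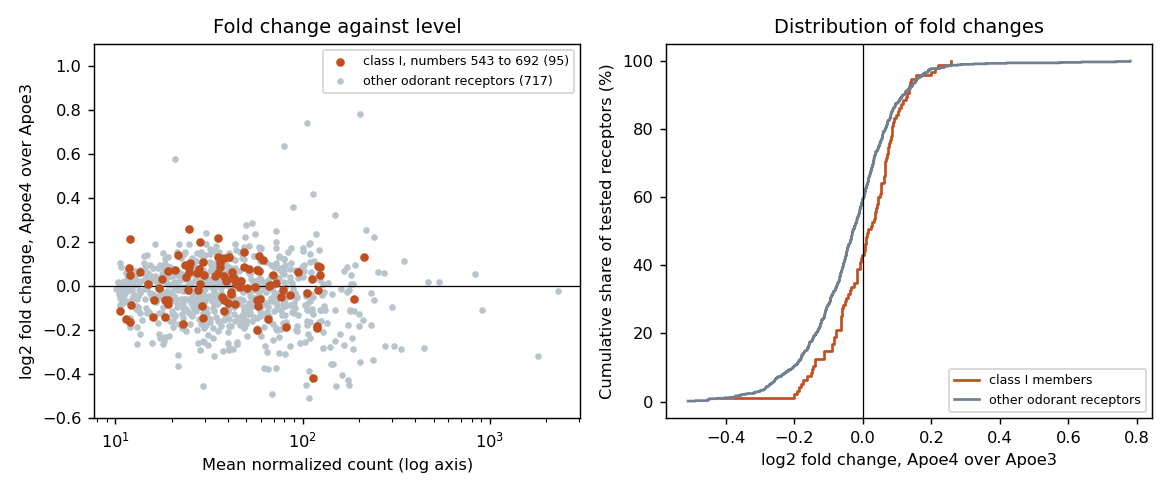
Left, the log2 fold change of Apoe4 over Apoe3 (y axis) against the mean normalized count (x axis, log scale) of the 95 tested class I members and the 717 other tested odorant receptors, 1 point per gene. Right, the cumulative share of each set (y axis, percent) by log2 fold change (x axis). The curve of the class I members, with a median of 0.01, lies right of that of the others, with a median of -0.03, around 0. The others include 8 class I genes of the same span.

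The reach of these folds was limited. With standard errors of 0.0714 to 0.105, a member needed a deposited log2 fold change of 0.25 to 0.38 in size to pass the adjusted threshold. Unshrunken, that is a log2 fold change of 0.75 to 1.92, or a fold of 1.68 to 3.79 with a median of 2.18. These values take the lower-information root of the shrinkage for every member. With the other root for the 44 members where sampling noise allows it, the fold needed ran between 1.36 and 3.79 with a median of 2.07. The deposited folds were a median of 30.8% of the unshrunken ones by the lower root and 33.9% with the other root where allowed, and as little as 13.2% by both. The small standard errors of members with few reads reflect this shrinkage and not precision. Smaller changes of single receptors were not detectable with these libraries.

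Class I genes with lower numbers lie inside the same span. The list used here held 8 of them, all 8 were tested, and 0 passed the DESeq2 adjusted threshold in the authors' deposited table, where their unadjusted p-values were all over 0.05. Their log2 fold changes had a median of 0.02 and ranged between -0.14 and 0.17 in the authors' deposited table. The background over all genes was 0.779% at the adjusted threshold and 10.3% unadjusted, so 0 of 8 is not a result about them. Olfr78, a receptor for the short-chain fatty acids acetate and propionate that also acts in kidney and carotid body, had a mean of 101 and 0.17 (DESeq2 adjusted p 0.583) in the authors' deposited table. Olfr68 had 0.16 (0.552), Olfr64 had 0.14 (0.665) and Olfr33 had -0.14 (0.664) in the authors' deposited table (DESeq2 adjusted p in parentheses). Olfr65, Olfr66, Olfr67 and Olfr69 lay between -0.01 and 0.02. A further receptor of the span, Olfr243, was found after its values were seen and was marked low with a mean of 7.47.

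Genes that act in receptor choice were measured far more deeply and did not pass. The list held Lhx2, its cofactor Ldb1, the Ebf factors, Emx2, the demethylase Kdm1a, Adcy3, Atf5, the receptor transporters Rtp1 and Rtp2, Lbr, Cbx5, Ehmt1, Ehmt2, Ptch1, Ric8b, Tshz1 and Bcl11b. All 20 were tested in the authors' deposited table and 0 passed the DESeq2 adjusted threshold, with a median log2 fold change of 0.02 and a range of -0.11 to 0.23. At an unadjusted p under 0.05 there were 2. The background over all genes was 0.779% at the adjusted threshold and 10.3% unadjusted. These counts are therefore not a result about the list. Bcl11b, which in mouse holds back the choice of class I genes, had 0.18 (DESeq2 adjusted p 0.482) in the authors' deposited table. Tshz1 had 0.23 (0.111), Ebf4 had -0.11 (0.717) and Cbx5 had 0.09 (0.718) in the authors' deposited table, with DESeq2 adjusted p in parentheses.

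The list of zone genes, which mark dorsal or ventral epithelium, gave the same count. All 10 were tested and 0 passed the DESeq2 adjusted threshold in the authors' deposited table, with a median log2 fold change of 0.07 and a range of -0.19 to 0.16. At an unadjusted p under 0.05 there were also 0. Beside a background over all genes of 0.779% adjusted and 10.3% unadjusted, 0 of 10 is not a result about the list. Nqo1, an enzyme of the dorsal zone in which most class I receptors are used, had 0.15 (DESeq2 adjusted p 0.643) in the authors' deposited table. Nrp2, an axon guidance receptor, had 0.13 (0.487), Robo2 had 0.16 (0.543), the transcription factor Nfix had 0.10 (0.576) and Tbx3 had -0.19 (0.518) in the authors' deposited table, with DESeq2 adjusted p in parentheses. The remaining genes of the list were Ncam2, Acsm4, Sema3f, Nfia and Nfib.

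Markers of mature olfactory neurons, the cells that carry the receptors, did not pass the test. All 15 genes of mature olfactory neurons were tested and 0 passed the DESeq2 adjusted threshold in the authors' deposited table, with a median log2 fold change of -0.04 and a range of -0.13 to 0.12. A single gene had an unadjusted p under 0.05, against a background over all genes of 10.3%. At the adjusted threshold that background was 0.779%, so 0 of 15 is not a result about these markers. The smallest p-values among them were those of Stoml3 (-0.13), Slc17a6 (0.12), Ano2 (-0.11) and Gng13 (-0.12) in the authors' deposited table. Omp, the defining protein of mature olfactory neurons, had a mean of 113676, so the labelled tissue carried its marker. Of 6 genes of immature neurons in the authors' deposited table, only Dpysl3 passed, and it rose by a log2 fold change of 0.24 (DESeq2 adjusted p 0.0272). Dcx, Gap43, Stmn2, Gng8 and Stmn1 had 0.16, 0.11, -0.08, 0.06 and -0.04. The background over all genes was 0.779%, with 0.324% higher, and the share of this list was not tested against it. The Dpysl3 call was lost once the trend with length was taken out (adjusted p 0.144). On its shrunken fold, it was also lost against a fold of 1.2 (adjusted p 1.0).

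Markers of other cells moved in part. Of 6 genes of sustentacular cells, the supporting cells of the epithelium, 2 passed in the authors' deposited table. Aldh1a7 fell by 0.27 and Cbr2 fell by 0.26 on the log2 scale (DESeq2 adjusted p 0.00172 and 0.0421). Cyp2g1, Sec14l3, Ermn and Cyp2a5 had -0.12, -0.08, -0.03 and -0.02 and did not pass. With the length trend removed Aldh1a7 still passed (adjusted p 0.0126) and Cbr2 did not (adjusted p 0.304), and Cbr2 was also lost with no filter on low means (adjusted p 0.0532). Of 6 erythroid genes 3 were tested, and all 3 fell in the authors' deposited table, with log2 fold changes of -0.46 for Alas2, -0.27 for Slc4a1 and -0.25 for Car1 (DESeq2 adjusted p 0.00337, 0.00509 and 0.0171). At the adjusted threshold the background over all genes was 0.779%, with 0.455% lower. The genes of a list share libraries, and the shares of the sustentacular and erythroid lists were not tested against that background. With the length trend removed Alas2 and Slc4a1 still passed (adjusted p 0.0226 and 0.00130) and Car1 did not (adjusted p 0.174). Against a fold of 1.2 none of these 5 sustentacular and erythroid genes passed (adjusted p 1.0 for each). That test used the shrunken folds, so it cannot say whether the unshrunken folds exceed 1.2. The haemoglobin genes Hba-a1, Hbb-bs and Hbb-bt were listed at 0, beside means of 164 for Alas2 and 93.5 for Slc4a1. These zeros are not read as absence of haemoglobin RNA, and their cause was not tested. Of 6 brain neuron genes 4 were tested and 0 passed the DESeq2 adjusted threshold in the authors' deposited table, with log2 fold changes between -0.04 and 0.03 and 0 at an unadjusted p under 0.05. Snap25, Syt1, Tbr1 and Th were the 4. Gad1 and Slc17a7, with means of 152 and 81.9, were not marked low but carry no p-value in the authors' deposited table. The reason is not given there, so these 2 genes cannot be called unchanged. Beside a background over all genes of 0.779% adjusted and 10.3% unadjusted, 0 of 4 is not a result about brain neurons. Summed marker levels by group are not in the table, and the part of these cells in the fold of Olfr570 was not tested.

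Genes that are not receptors but lie in or beside the cluster were followed as neighbours. Of 40 listed names, 35 were in the table and 18 were tested, and 0 passed the DESeq2 adjusted threshold in the authors' deposited table, with a median log2 fold change of 0.03 and a range of -0.18 to 0.23. Unadjusted, 3 had p under 0.05. The background over all genes was 0.779% at the adjusted threshold and 10.3% unadjusted, so 0 of 18 is not a result about the neighbours. Trim12c had 0.23 (DESeq2 adjusted p 0.313), Rhog had -0.18 (0.414), Trim34a had 0.20 (0.473) and Stim1, a calcium sensor of the endoplasmic reticulum, had 0.13 (0.543) in the authors' deposited table. The beta-globin genes lie inside the span between Olfr67 and Olfr66.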

How the data were processed

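The authors sequenced poly(A) RNA as paired reads, per the labels' protocols, and, per the submitters' processing notes, used STAR, featureCounts and DESeq2 with GRCm38, for which no versions are given. The deposited table gives per gene a mean normalized signal (judged from its values, counts divided by size factors and averaged over 10 libraries), a log2 fold change that its standard errors show to be shrunken, with its SE, a Wald score, p-values with Benjamini-Hochberg adjustment, and a mark for low means. Counts by library are not in it, so a count test of Apoe4 against Apoe3 could not be run and the authors' deposited values at an adjusted p under 0.05 are the test. The score equalled fold over SE, and the adjusted p-values were recomputed from the deposited p-values.

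From these, unshrunken folds were approximated from each SE and its ceiling, taking the root of lower information, and with the other root where sampling noise allowed it. Genes holding 1 read gave the size factors, and whole reads were solved for members with a mean under 6, allowing up to 20 reads per library within a tolerance of 3e-14. Coding identity used GENCODE transcripts and edit distance over the longer sequence. Coordinates and names are RefSeq GRCm38.p6. Software was Python 3.11.15, pandas 2.3.3, numpy 2.4.6, scipy 1.17.1, statsmodels 0.14.6 and edlib 1.3.9.post1, checked on simulated data.

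Named receptors were the 10 with the smallest p, the 8 highest and 3 lowest tested means, the 3 highest and 3 lowest folds, both ends, Olfr544 and Olfr558, and up to 4 genes of each list, with every gene of the receptor, choice and zone lists. Members and lists were chosen with earlier results of these data known.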

Additional observations from a re-analysis of the deposited data

Results flagged for a closer look

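Among the low class I receptors with resolved reads, 24 groups of libraries with any reads were examined for a library far from the others, and 7 stood out. In all 7, a single library of the group held every read. In Apoe4 these were Olfr547 with 2 reads, Olfr583 with 1, Olfr603 with 2 and Olfr663 with 2. In Apoe3 they were Olfr574 with 2 reads, Olfr585 with 2 and Olfr589 with 2. With so few reads a group in which 1 library holds all of them is flagged at any count. A chance rate of about 1 in 20 does not apply to such groups, so the 7 flags cannot be read as an excess. The reads of Olfr583, Olfr603 and Olfr663 were all in library Apoe4 b, which also held the most reads summed over the 15 resolved members.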

How the results depend on the processing

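No paired analysis was possible because the table holds no values by library, and for the same reason leaving out each replicate, another count tool and another scaling were not run. The count of changed class I receptors was 1 (Olfr570), and it stayed at 1 with no filter on low means, without X and Y genes, over all receptors of the span, and without members that have a near-identical copy, an alternative chosen after seeing the data. It was 0 with the length trend removed and 0 against a fold of 1.2 (on shrunken folds), from the deposited DESeq2 statistics, and 5 at an unadjusted p under 0.05. Over all 16050 genes tested, 125 passed as reported, 102 with the length trend removed, 22 against a fold of 1.2 and 1653 unadjusted. With no filter 117 of 20776 genes passed, and without X and Y genes 111 of 15526. At such shares a count of 0 among 95 members is not a result about class I receptors. The median log2 fold change, 0.01 as reported, ran between -0.01 (means of at least 50) and 0.05 (unshrunken). The median mean was 34.0 over all 115 members, those at 0 included. Of the named genes, 7 calls were lost against a fold of 1.2, 4 with the length trend removed (Olfr570, Dpysl3, Cbr2 and Car1) and 1 (Cbr2) with no filter, and none of these reversed. At a median mean of 38.3, the unshrunken fold a member needed to pass had a median of 2.18, or 2.07 with the other root of the shrinkage where allowed, chosen after seeing the data. How far depth, the number of libraries and their spread each set this limit was not tested.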

Other observations

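RefSeq promoter windows of GRCm38.p6, 250 bases before each annotated start and 50 after it, were found for 99 of the 115 members. Of these, 72 began at the first coding base, although 100 of the 115 members have more than 1 exon in GENCODE. Motifs were searched only in the 250 bases before the start. There the homeodomain motif TAATTA was present in 14 of the 99 windows (14.1%). The share was 18.6% in 845 windows of other odorant receptors and 4.84% in all 32851 windows. The motif CCCNNGGG, the core bound by Ebf factors, was present in 3.03% of members' windows, 2.72% of those of other receptors and 11.8% of all. In 5 members' windows the start lay over 1000 bases before the coding start and near a GENCODE start. Each motif was present in 0 of these 5, which are too few to give a share. Both motifs read the same on both strands and do not overlap in their letters. A match is a description of the letters and not a binding site.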
